A study of Mus musculus with 9 samples.

Results

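The interferon response genes described here are 49 of the 19481 genes measured in KLN205 tumors. They were selected from a list of interferon receptors, transcription factors and induced genes, and 5 of them, *Socs1*, *Ubd*, *Gm4841*, *Apol10b* and *Ifnlr1*, were chosen by the difference between both *Tmprss11b* shRNAs in these same tumors. For those 5 genes the levels with each shRNA are therefore a description with no test, and for all 49 the difference between the shRNAs is a description. All 49 members were found in the table and all 49 passed the filter on low counts.

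Interferons are secreted proteins through which infected cells and lymphocytes alert their neighbours. Type I interferons signal through the receptor chains IFNAR1 and IFNAR2, and interferon-λ through IFNLR1, and both lead to a complex with STAT2 and IRF9 that binds the interferon-stimulated response element (ISRE) before antiviral genes. Interferon-γ, made mainly by T cells and NK cells, signals through IFNGR1 and JAK2, acts on genes that carry the gamma-activated site (GAS), and is known in tumors for inducing IRF1, antigen presentation and the guanylate-binding and immunity-related GTPases.

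The RNA came from bulk tumors grown under the skin from KLN205, a line of squamous carcinoma from mouse lung, in female DBA/2 mice, an immunocompetent strain, that were 6 to 8 weeks old at injection. The carcinoma cells carried a lentiviral, doxycycline-inducible shRNA, either a nontargeting control, sh2 against *Tmprss11b* or sh3 against *Tmprss11b* (shRNA1 and shRNA2 of the study). All groups, the control included, were puromycin selected and received doxycycline in the drinking water from an average tumor volume of 100 mm3 until resection on day 50, with 3 tumors per group. The shRNA was carried by the carcinoma cells only, whereas the RNA also came from host cells in the tumor, so fewer cells of a type and less RNA per cell cannot be told apart at any gene below.

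Interferon signaling is read in the sequence near the start of such genes. RefSeq promoters (GRCm38.p6, the build mm10) were matched for 38 of the 49 members by symbol, and the 250 bases before each start were searched on both strands for the core of the ISRE, which is GAAA, any 2 bases and GAAA again, and for the GAS TTCNNNGAA, allowing overlapping matches. The ISRE core was found before 18 of the 38 members (47.4%), against 3.46% of 27025 genes in the promoter table, and GAS before 10 (26.3%), against 8.13%. Among the GTPases with an entry, 8 of 9 held the ISRE core and 5 of 9 held GAS. The matches are descriptions of letters, not of bound sites. The 8 stretches of 120 bases printed here end at the base before the start and are shown because they carry the elements of the main groups below; capitals mark the ISRE core and GAS matches, with overlapping matches run together.
*Isg15* promoter, chr4:156200819-156200938, minus strand: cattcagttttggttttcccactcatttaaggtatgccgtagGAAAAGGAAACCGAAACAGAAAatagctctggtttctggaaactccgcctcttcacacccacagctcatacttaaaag
*Ifit1* promoter, chr19:34640769-34640888, plus strand: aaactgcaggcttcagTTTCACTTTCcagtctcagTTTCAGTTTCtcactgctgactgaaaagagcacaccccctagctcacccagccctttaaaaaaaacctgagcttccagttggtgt
*Socs1* promoter, chr16:10785537-10785656, minus strand: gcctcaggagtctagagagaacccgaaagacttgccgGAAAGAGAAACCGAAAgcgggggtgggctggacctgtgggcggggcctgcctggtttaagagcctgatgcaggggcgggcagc
*Irf1* promoter, chr11:53769894-53770013, plus strand: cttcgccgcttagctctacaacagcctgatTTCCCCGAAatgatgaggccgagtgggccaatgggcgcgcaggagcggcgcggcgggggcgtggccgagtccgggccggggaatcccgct
*Gbp2* promoter, chr3:142620543-142620662, plus strand: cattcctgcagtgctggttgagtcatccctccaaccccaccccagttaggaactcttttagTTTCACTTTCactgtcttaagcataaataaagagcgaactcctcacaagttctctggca
*Igtp* promoter, chr11:58199436-58199555, plus strand: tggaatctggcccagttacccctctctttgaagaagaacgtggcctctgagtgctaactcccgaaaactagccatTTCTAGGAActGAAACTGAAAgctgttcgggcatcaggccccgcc
*Irgm2* promoter, chr11:58214857-58214976, plus strand: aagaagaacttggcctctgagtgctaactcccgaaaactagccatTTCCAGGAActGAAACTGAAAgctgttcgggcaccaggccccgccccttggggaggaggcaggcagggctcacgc
*Tgtp1* promoter, chr11:48992247-48992366, minus strand: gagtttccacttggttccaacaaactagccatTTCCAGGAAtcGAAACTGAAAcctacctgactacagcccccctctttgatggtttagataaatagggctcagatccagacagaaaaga
*Isg15*, *Ifit1*, *Socs1* and *Gbp2* held the ISRE core alone and *Irf1* held GAS alone within these bases, whereas *Igtp*, *Irgm2* and *Tgtp1* held GAS a few bases before the ISRE core. *Igtp* and *Irgm2* shared an unbroken run of 55 bases, and *Irgm2* and *Tgtp1* a run of 20. *Ubd*, *Apol10b*, *Ifnlr1*, *Ifnar1*, *Ifngr1* and *Jak2* held neither motif in the 250 bases. The promoters of *Usp18*, *Dhx58*, *Zbp1*, *Oas2*, *Mx1*, *Mx2*, *Rtp4*, *Parp14*, *Gbp6*, *Iigp1* and *Gm4841* were not analysed here.

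Total counts were between 20653219 and 24047784 per tumor, so that 3 counts, the floor used here, corresponded to at most 0.145 CPM (counts scaled to the size of the library). The targeted gene, listed as *Tmprss11bnl*, had a mean of 1.53 ± 0.691 CPM (SD, n = 3) in control, 0.200 ± 0.0994 in sh2 and 0.293 ± 0.147 in sh3 tumors, and each shRNA tumor lay below each control tumor. Its log2 fold change was -2.89 ± 0.60 (SE) with sh2 and -2.36 ± 0.58 with sh3, with adjusted p = 0.999 and 0.753 in edgeR's quasi-likelihood test. The epithelial markers *Epcam*, *Cdh1* and *Krt8* were high in every tumor, the lowest value being 235 CPM for *Cdh1*. The squamous markers were uneven. *Krt5*, a basal squamous keratin, was at 87.4 CPM in control tumor 1 and between 0.0856 and 5.02 CPM in the others. *Krt14*, another such keratin, was between 12.3 and 390 CPM over the 9 tumors, *Sox2* between 9.57 and 32.9 and *Trp63* between 0.370 and 6.94 CPM.

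Transcripts of all 49 members were present in all 9 tumors, the controls included. On the TPM scale, which corrects counts for transcript length and library size, *Bst2*, which tethers budding virus at the cell membrane, was highest with a mean of 601 over the tumors. It was followed by the GTPases *Gbp2* at 477, *Irgm1* at 435, *Igtp* at 362 and *Iigp1* at 322 TPM. The lowest mean was that of *Apol10b*, an apolipoprotein L family gene, at 7.32 TPM. Neighbours in this order did not separate, since the SD within a group spanned several ranks: *Bst2* was at 614 ± 148 and *Gbp2* at 524 ± 167 TPM in control tumors (SD, n = 3). The plot of TPM by gene shows these levels for all 49 members.

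**Figure D1:**
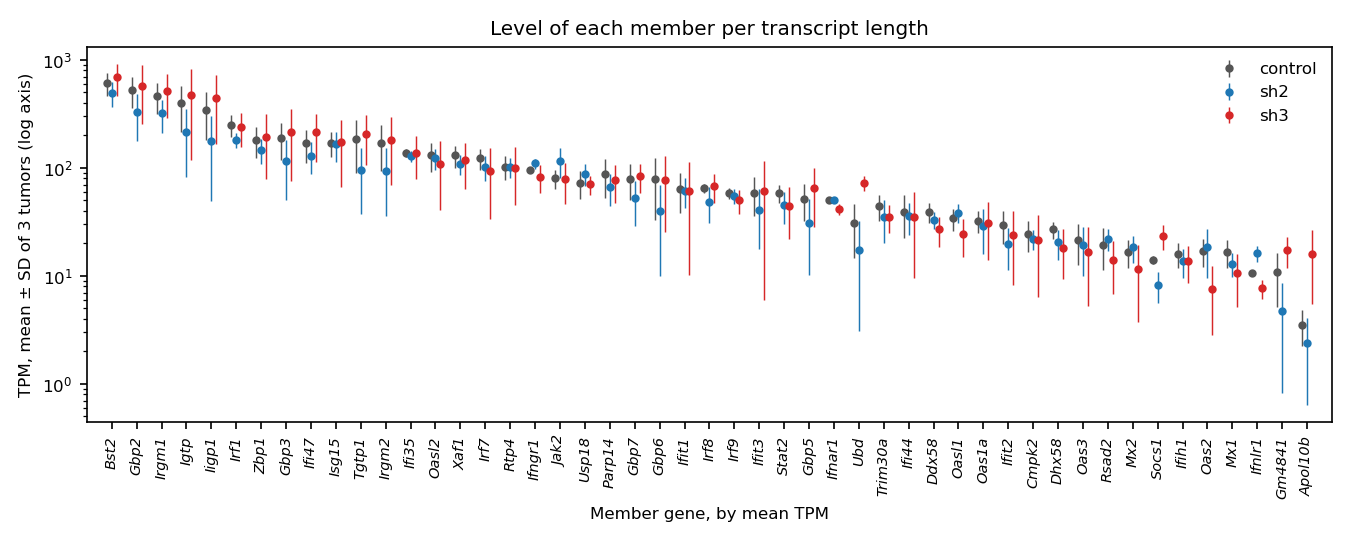
Mean TPM (log axis) of each of the 49 members in control, sh2 and sh3 tumors, in order of the mean over all 9 tumors, with bars of ± SD over 3 tumors. The means run from 601 TPM for *Bst2* to 7.32 TPM for *Apol10b*, and the groups' bars overlap for most genes.

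The question put to the data was whether *Tmprss11b* depletion altered this response. None of the 44 members tested with sh2, of the 44 tested with sh3 or of the 49 tested with the mean of both shRNAs passed an adjusted p of 0.05 in edgeR's quasi-likelihood test, against 0% of 14725 genes in each comparison. At an unadjusted p under 0.05 the members numbered 0 in each comparison, where the background was 3.52% of all genes with sh2, 6.63% with sh3 and 4.09% with the mean of both. DESeq2's Wald test and edgeR's likelihood ratio test called 0 of these members as well. The lowest unadjusted p of a member was 0.0839 with sh2 (*Jak2*), 0.0953 with sh3 (*Oas2*) and 0.131 with the mean of both (*Apol10b*).

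The fitted changes nevertheless leaned in a direction with each shRNA. With sh2, 38 of 49 members had a log2 fold change below 0 and the median was -0.26, where the median of all genes tested was 0.01. With sh3, 33 of 49 were above 0 and the median was 0.16, against 0.03 for all genes. These counts include the 5 genes chosen by the difference between the shRNAs. Of the other 44, 34 were below 0 with sh2 (median -0.23) and 29 above 0 with sh3 (median 0.13). With the mean of both, 34 of 49 were below 0 and the median was -0.07, against 0.02. The share of the 49 above 0 was 22.4% with sh2, 67.3% with sh3 and 30.6% with the mean of both. For all genes tested it was 51.8%, 54.9% and 55.0% in the same order. These comparisons share the control tumors, and the medians moved with single tumors: without sh3 tumor 3 the sh3 median was -0.23, without control tumor 1 it was -0.02, and without control tumor 3 the sh2 median was -0.10. The mean of both had a median of 0.14 without control tumor 3 and 0.09 without sh3 tumor 1.

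**Figure D2:**
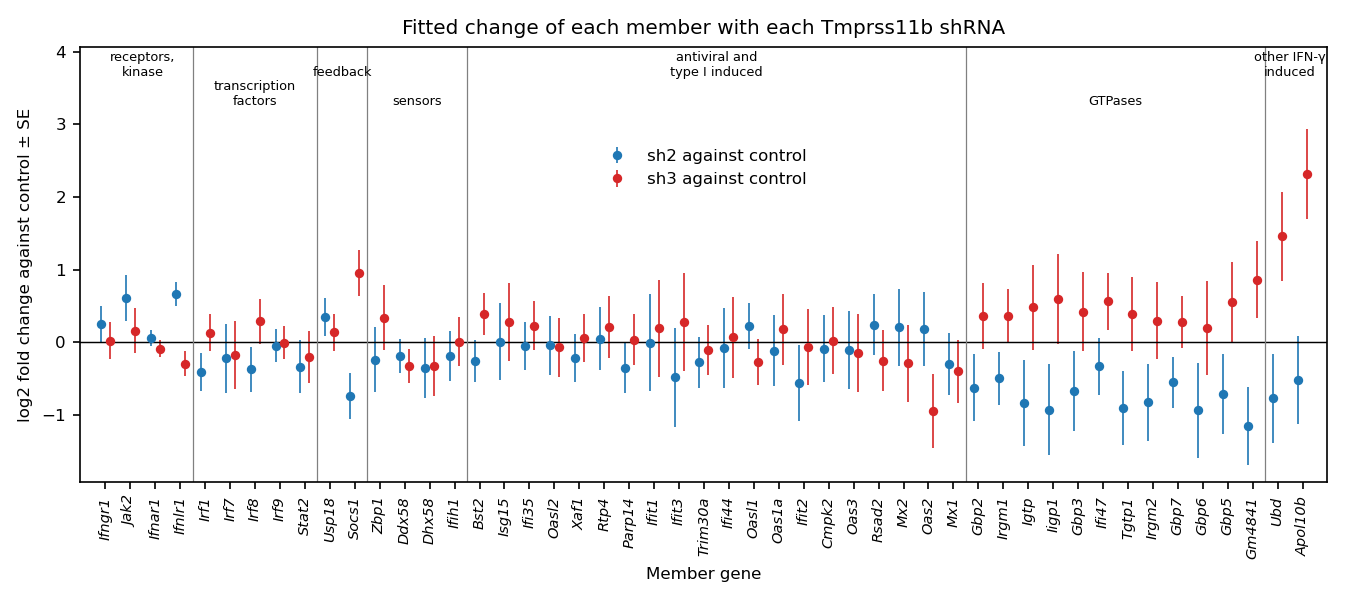
Log2 fold change ± SE against control for each of the 49 members with sh2 and with sh3, grouped by role. The 12 GTPases lie below 0 with sh2, with a median of -0.77, and above 0 with sh3, with a median of 0.40 (-0.71 and 0.39 without *Gm4841*); no tested member passed an adjusted p of 0.05.

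Few members separated from the control tumors completely. With sh2, *Ifngr1* and *Ifnlr1* lay above every control tumor and *Socs1* below, where 5.56% of all genes lay above and 5.83% below. With sh3, *Socs1*, *Ubd* and *Apol10b* lay above every control tumor and *Ifnlr1* below, where 6.78% of all genes lay above and 5.44% below. All of these but *Ifngr1* were among the 5 genes on which the list was chosen, so nothing is read from their number. Likewise, *Socs1*, *Ubd*, *Gm4841* and *Apol10b* were higher in every sh3 than in every sh2 tumor and *Ifnlr1* lower, where 5.51% of all genes were higher and 4.62% lower. No member had all 6 shRNA tumors above every control tumor (1.21% of all genes) or all 6 below (0.958%).

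Among the receptors, *Ifnar1* differed least between tumors and *Ifnlr1* lay on opposite sides of the control tumors with the shRNAs. *Ifnar1*, a chain of the type I receptor, was at 153, 144 and 145 CPM in control, 149, 162 and 149 in sh2 and 129, 136 and 151 in sh3 tumors, the narrowest span of any member (1.26-fold from lowest to highest tumor). Its groups overlapped, with log2 fold changes of 0.05 ± 0.11 (SE) and -0.09 ± 0.11. *Ifngr1*, the ligand-binding chain of the interferon-γ receptor, was at 86.9, 79.8 and 86.9 CPM in control, 96.7, 93.1 and 111 in sh2 and 50.8, 117 and 88.9 in sh3 tumors. Every sh2 tumor was above every control tumor, by a log2 fold change of 0.25 ± 0.25, with adjusted p = 0.999 in edgeR and p = 0.1 in a two-sided exact permutation test, the smallest that 3 against 3 tumors can give.

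*Ifnlr1*, the specific chain of the interferon-λ receptor on epithelial cells, was at 19.0, 17.3 and 17.4 CPM in control tumors. It was at 22.7, 29.0 and 33.0 CPM in sh2 tumors and at 16.0, 14.3 and 13.4 CPM in sh3 tumors. No group overlapped another, with sh2 highest and sh3 lowest, and the fitted difference of sh3 minus sh2 was -0.96 ± 0.17 on the log2 scale. With the mean of both shRNAs, which is independent of the contrast that chose the gene only approximately, since both share the tumors and the estimate of the spread, its log2 fold change was 0.18 ± 0.15 with adjusted p = 0.982 in edgeR. *Jak2*, the kinase of the interferon-γ receptor, was at 138, 173 and 197 CPM in control, 244, 353 and 178 in sh2 and 149.8, 142 and 274 in sh3 tumors. Its sh2 tumors overlapped the control tumors through sh2 tumor 3, and its log2 fold change was 0.61 ± 0.31 with sh2 (adjusted p = 0.999 in edgeR) and 0.38 ± 0.28 with the mean of both (adjusted p = 0.982).

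The 5 transcription factors differed little between groups, and 3 of them were lowest in sh3 tumor 1. *Stat2*, a subunit of the ISRE-binding complex, was at 92.3, 106 and 125 CPM in control, 111, 84.0 and 60.7 in sh2 and 48.8, 88.4 and 144 in sh3 tumors. *Irf9*, the DNA-binding subunit of that complex, was at 66.1, 60.1 and 71.1 CPM in control, 70.1, 55.4 and 65.4 in sh2 and 42.5, 73.4 and 80.4 in sh3 tumors. *Irf7*, which amplifies type I interferon production, was at 74.6, 117 and 97.6 CPM in control, 102, 83.6 and 62.0 in sh2 and 27.1, 92.0 and 136 in sh3 tumors. *Stat2*, *Irf9* and *Irf7* were lowest in sh3 tumor 1 and highest in sh3 tumor 3, so that the sh3 group held both extremes.

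*Irf1*, a factor induced by interferon-γ that carried GAS in the promoter shown above, was at 277, 359 and 417 CPM in control, 296, 242 and 254 in sh2 and 256, 368 and 531 in sh3 tumors. *Irf8*, a factor of myeloid and dendritic cells, was at 71.9, 76.4 and 82.1 CPM in control, 79.1, 41.4 and 57.3 in sh2 and 54.6, 128 and 98.8 in sh3 tumors. Both were lowest in sh2 tumor 2, and their groups overlapped. Over the 5 factors the log2 fold changes were between -0.41 and -0.05 with sh2, between -0.20 and 0.29 with sh3 and between -0.27 and -0.03 with the mean of both, with a lowest adjusted p of 0.880 in edgeR.

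The feedback inhibitors went apart. *Socs1*, which blocks JAK kinases and is itself induced by interferon-γ, was at 7.28, 8.53 and 8.02 CPM in control tumors, at 5.86, 3.24 and 5.13 in sh2 tumors and at 10.1, 21.7 and 14.4 in sh3 tumors. No group overlapped another, with sh2 lowest and sh3 highest, the reverse of *Ifnlr1*, and sh3 minus sh2 was 1.70 ± 0.33 (SE) on the log2 scale. With the mean of both shRNAs the log2 fold change of *Socs1* was 0.11 ± 0.28 with adjusted p = 0.988 in edgeR. *Usp18*, a protease that removes ISG15 and restrains IFNAR signaling, was between 38.1 and 69.2 CPM in control, 53.3 and 89.7 in sh2 and 52.4 and 71.6 in sh3 tumors, and its groups overlapped.

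**Figure D3:**
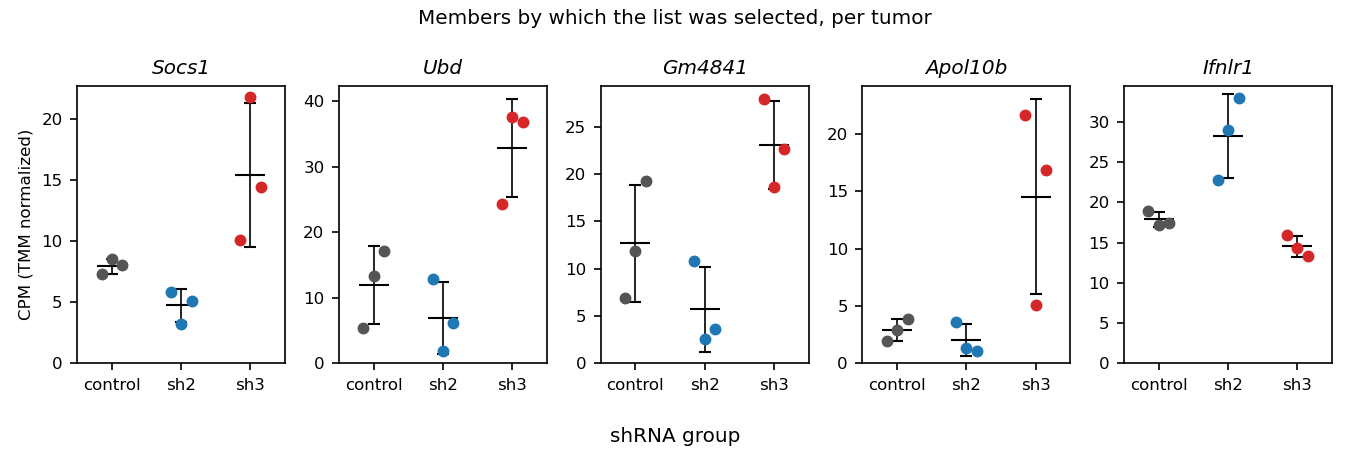
CPM of the 5 members by which the list was selected, 1 point per tumor, with the mean ± SD of the 3 tumors of each group. *Socs1* and *Ifnlr1* separate all 3 groups in opposite orders, and the 3 sh3 tumors are above all sh2 tumors for *Socs1*, *Ubd*, *Gm4841* and *Apol10b*.

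The sensors of foreign nucleic acid are *Ifih1* and *Ddx58*, receptors for viral RNA, *Dhx58*, their relative without signaling domains, and *Zbp1*, which senses left-handed nucleic acid and can start necroptosis. Their log2 fold changes were between -0.35 and -0.19 with sh2 and between -0.33 and 0.33 with sh3. *Ddx58* came nearest to a difference with the mean of both, at -0.26 ± 0.20 (adjusted p = 0.982 in edgeR, exact permutation p = 0.190). All 4 sensors were lowest in sh3 tumor 1, with *Dhx58* at 8.46 CPM there and no lower than 15.5 CPM elsewhere.

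The 20 antiviral effectors and other type I induced genes spread more between tumors than between groups. Their median log2 fold change was -0.08 with sh2, 0.03 with sh3 and -0.04 with the mean of both, and 14, 9 and 14 of the 20 were below 0. Above 0 were 30%, 55% and 30% of the 20, against 51.8%, 54.9% and 55.0% of all genes tested. None of the 20 separated from the control tumors with either shRNA. Of all genes tested, 5.56% lay above and 5.83% below every control tumor with sh2, and 6.78% above and 5.44% below with sh3. With shares this small, nothing is read from a count of 0 among 20 genes. The direction rested on single tumors: the sh3 median was -0.62 without sh3 tumor 3, 0.36 without sh3 tumor 1 and -0.22 without control tumor 1, and the sh2 median was 0.10 without sh2 tumor 3.

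Many of these genes were lowest, or highest, in the same tumor. The mean over the 20 genes of log2 CPM, taken from the mean of the control tumors, was -0.47, 0.15 and 0.31 in control, 0.22, 0.00 and -0.54 in sh2 and -1.33, 0.04 and 0.63 in sh3 tumors. sh3 tumor 1 was thus lowest and sh3 tumor 3 highest. Of the 20 genes, 18 (90%) were lowest in sh3 tumor 1, where 22.6% of all genes tested were lowest, and 14 (70%) were highest in sh3 tumor 3, where 8.54% of all genes were highest. They went apart in sh2 tumor 2, whose mean of 0.00 covers both directions: *Oas2*, *Oasl1*, *Mx2* and *Rsad2* had their highest value there, whereas *Ifit2* was at 28.3 CPM against a control mean of 49.1 and *Ifit3* at 24.4 against 49.1.

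*Ifit1*, which binds viral RNA and whose promoter held the ISRE core in both places shown, had the widest span of the group, 10.9-fold from lowest to highest tumor. It was at 42.2, 73.8 and 94.9 CPM in control, 85.9, 77.1 and 46.7 in sh2 and 13.2, 83.5 and 144 in sh3 tumors. *Isg15*, a ubiquitin-like modifier, was at 39.7, 68.0 and 54.2 CPM in control, 58.8, 69.1 and 35.1 in sh2 and 17.0, 87.8 and 91.2 in sh3 tumors. In both genes the sh3 group held the lowest and the highest tumor.

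*Oas2*, an oligoadenylate synthetase of the pathway that activates RNase L, had the largest fold change of a tested member with sh3. It was at 19.8, 28.4 and 33.8 CPM in control, 39.3, 39.8 and 13.9 in sh2 and 6.38, 12.3 and 23.7 in sh3 tumors. The lowest values were those of sh3 tumors 1 and 2, while sh3 tumor 3 lay within the control range. The log2 fold change was -0.95 ± 0.51 with sh3 (adjusted p = 0.760 in edgeR, exact permutation p = 0.2), 0.18 ± 0.50 with sh2 and -0.39 ± 0.43 with the mean of both (adjusted p = 0.982). Without sh3 tumor 3 the sh3 value was -1.57, and without sh3 tumor 1 it was -0.60.

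*Mx1*, a gene of the dynamin-like GTPases, was at 17.2, 18.2 and 26.5 CPM in control, 20.6, 14.9 and 14.6 in sh2 and 5.59, 20.5 and 20.8 in sh3 tumors, with a log2 fold change of -0.35 ± 0.37 for the mean of both (adjusted p = 0.982 in edgeR). Its groups overlapped, sh3 tumor 1 being lowest. *Bst2* was at 146, 219.7 and 224 CPM in control, 205, 143 and 145 in sh2 and 159, 273 and 339 in sh3 tumors, and was an exception in that its lowest value was in sh2 tumor 2.

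The other 15 genes of the group were *Ifit2* and *Ifit3*, relatives of *Ifit1*, *Oas1a* and *Oas3*, synthetases like *Oas2*, *Oasl1* and *Oasl2*, OAS-like genes, *Mx2*, the neighbour of *Mx1*, *Rsad2* (viperin), an antiviral enzyme, *Cmpk2*, a mitochondrial nucleotide kinase beside *Rsad2* on chromosome 12, *Parp14*, an ADP-ribosyltransferase, *Trim30a*, a TRIM family gene, *Xaf1*, a proapoptotic factor, and *Rtp4*, *Ifi35* and *Ifi44*. Their log2 fold changes lay between -0.56 (*Ifit2*) and 0.24 (*Rsad2*) with sh2 and between -0.29 (*Mx2*) and 0.28 (*Ifit3*) with sh3. Their span from the lowest to the highest tumor ran from 2.28-fold for *Trim30a* to 9.63-fold for *Ifit3*.

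**Figure D4:**
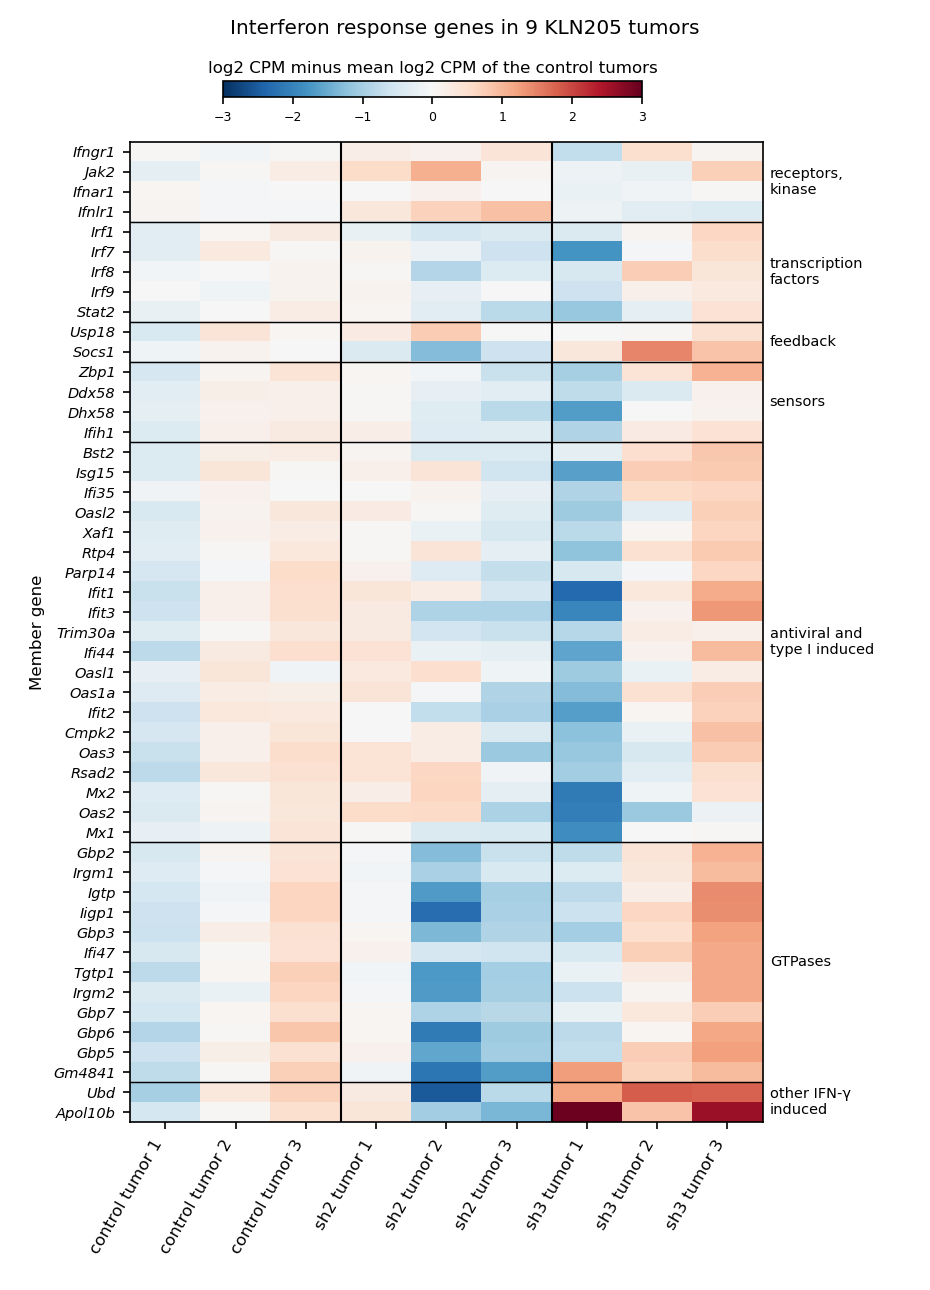
Log2 CPM of each of the 49 members in each of the 9 tumors after subtraction of the control mean, grouped by role. The antiviral group is lowest in sh3 tumor 1 (mean -1.33), the GTPases are lowest in sh2 tumor 2 (mean -1.53), and both groups are highest in sh3 tumor 3 (means 0.63 and 1.13).

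The 12 interferon-inducible GTPases, which attack the vacuoles of intracellular pathogens and are typical targets of interferon-γ, had fitted changes of 1 sign with each shRNA. All 12 had a log2 fold change below 0 with sh2, from -1.15 to -0.33 with a median of -0.77, and all 12 above 0 with sh3, from 0.20 to 0.86 with a median of 0.40, where the medians of all genes tested were 0.01 and 0.03. These values include *Gm4841*, which was chosen by the difference between the shRNAs and gave the value farthest from 0 with each shRNA. The other 11 were likewise all below 0 with sh2, from -0.94 to -0.33 with a median of -0.71, and all above 0 with sh3, from 0.20 to 0.59 with a median of 0.39. Of all genes tested, 51.8% were above 0 with sh2, 54.9% with sh3 and 55.0% with the mean of both. None of the 11 tested with a single shRNA was called (lowest adjusted p = 0.999 with sh2 and 0.819 with sh3 in edgeR), and with the mean of both, 11 of 12 were below 0 with a median of -0.14. The size rested on few tumors: the sh2 median was -0.43 without control tumor 3, -0.45 without sh2 tumor 2 and -1.37 without sh2 tumor 1, and the sh3 median was 0.16 without control tumor 1, 0.74 without control tumor 3, 0.71 without sh3 tumor 1 and -0.07 without sh3 tumor 3.

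The tumors came in a similar order for most of the 12 genes. Their mean log2 CPM relative to the control mean was -0.59, 0.02 and 0.57 in control, 0.00, -1.53 and -0.94 in sh2 and -0.44, 0.40 and 1.13 in sh3 tumors. The controls alone thus spanned more than a log2 unit, sh2 tumor 1 lay at their mean, and sh3 tumor 1 lay within their range (without *Gm4841* it was at -0.60, just below the lowest control at -0.58). Of the 12 genes, 11 were lowest in sh2 tumor 2, where 16.0% of all genes tested were lowest, and 11 were highest in sh3 tumor 3, against 8.54% of all genes. The exceptions were *Gm4841*, highest in sh3 tumor 1, and *Ifi47*, lowest in sh2 tumor 3, so that without *Gm4841* 10 of 11 were lowest in sh2 tumor 2 and 11 of 11 highest in sh3 tumor 3.

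*Iigp1*, an immunity-related GTPase, had the widest span of the tested GTPases, 12.9-fold. It was at 272, 412 and 659.7 CPM in control, 405, 85.8 and 213 in sh2 and 270.3, 642 and 1109 in sh3 tumors. Its log2 fold change was -0.93 ± 0.62 with sh2 (adjusted p = 0.999 in edgeR, exact permutation p = 0.2) and 0.59 ± 0.62 with sh3 (adjusted p = 0.878). Without sh3 tumor 3 the sh3 value of *Iigp1* was 0.00, and without sh3 tumor 1 it was 0.97. *Igtp*, a regulator of the same family with GAS and the ISRE core side by side, was at 218, 289.9 and 490.4 CPM in control, 306, 96.2 and 157 in sh2 and 184, 360.0 and 846 in sh3 tumors, with a log2 fold change of -0.84 ± 0.59 with sh2 and 0.48 ± 0.59 with sh3, the latter -0.32 without sh3 tumor 3.

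*Tgtp1* was at 115, 206 and 321 CPM in control, 185, 59.8 and 96.7 in sh2 and 172, 233 and 436 in sh3 tumors. It had the lowest unadjusted p of the GTPases with sh2, 0.108 in edgeR, for a log2 fold change of -0.91 ± 0.51 (adjusted p = 0.999). *Gbp6*, a guanylate-binding protein, was at 68.9, 130.1 and 224 CPM in control, 132, 29.0 and 59.8 in sh2 and 73.4, 131 and 281 in sh3 tumors, with -0.94 ± 0.65 on the log2 scale with sh2 and -0.37 ± 0.55 with the mean of both. In each of these genes sh2 tumors 2 and 3 lay below all control tumors and sh2 tumor 1 within the control range. Leaving out sh2 tumor 1 gave -1.67 for *Gbp6*, -1.59 for *Iigp1*, -1.46 for *Tgtp1* and -1.40 for *Igtp* with sh2. Leaving out control tumor 3 gave -0.43, -0.54, -0.49 and -0.44 in the same order, and leaving it out turned the *Gbp6* value for the mean of both to 0.13.

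*Gbp2* and *Irgm1* were the most abundant GTPases. *Gbp2* was at 375, 550.0 and 686 CPM in control, 503, 211 and 329 in sh2 and 307, 677 and 1081 in sh3 tumors. *Irgm1*, a regulator of the other immunity-related GTPases, was at 321, 412 and 569 CPM in control, 396, 215 and 309 in sh2 and 320.1, 536 and 819 in sh3 tumors. The order of tumors was alike in both, sh2 tumor 2 lowest and sh3 tumor 3 highest. *Gbp3*, *Gbp5*, *Gbp7*, *Irgm2* and *Ifi47* complete the group, with log2 fold changes from -0.83 to -0.33 with sh2 and from 0.28 to 0.56 with sh3.

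*Irgm2*, whose promoter shared its GAS and ISRE arrangement with *Igtp*, was at 175, 206 and 371 CPM in control, 230.4, 72.8 and 119 in sh2 and 152, 252 and 519 in sh3 tumors, with a log2 fold change of -0.83 ± 0.53 with sh2 (adjusted p = 0.999 in edgeR, exact permutation p = 0.3). *Gbp5*, a guanylate-binding protein known for promoting inflammasome assembly, was at 40.3, 69.7 and 85.0 CPM in control, 68.1, 21.1 and 29.9 in sh2 and 37.3, 103 and 146 in sh3 tumors, and its log2 fold change with sh3 was 0.55 ± 0.55 (adjusted p = 0.870 in edgeR). *Ifi47*, an immunity-related GTPase, was at 99.1, 141 and 186 CPM in control, 149.9, 96.6 and 91.5 in sh2 and 101, 226 and 303 in sh3 tumors, with 0.56 ± 0.39 on the log2 scale with sh3 (adjusted p = 0.819 in edgeR). In all 3 genes the sh3 tumors overlapped the control tumors and sh3 tumor 3 was highest, and in *Gbp5* and *Ifi47* sh3 tumor 2 was above every control tumor too. Without sh3 tumor 3 the sh3 value was 0.08 for *Gbp5* and 0.18 for *Ifi47*, and without sh3 tumor 1 it was 0.94 and 0.90.

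*Gm4841*, a predicted gene beside *Iigp1* on chromosome 18, was at 6.94, 11.9 and 19.2 CPM in control, 10.9, 2.61 and 3.63 in sh2 and 28.0, 18.6 and 22.7 in sh3 tumors. The sh3 tumors were all above the sh2 tumors, by 2.01 ± 0.55 on the log2 scale, and overlapped the control tumors through sh3 tumor 2. Without sh2 tumor 1 that difference was 2.88. Unlike the other GTPases it was high in sh3 tumor 1. For the mean of both shRNAs the log2 fold change was -0.15 ± 0.46 (adjusted p = 0.992 in edgeR).

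Several of these genes lie side by side: 23 of the 49 members fell into 9 clusters with starts within 500000 bases of each other. In mm10, *Gbp5*, *Gbp7*, *Gbp3* and *Gbp2* lie on chromosome 3 between 142496934 and 142638008, *Irgm1*, *Tgtp1* and *Ifi47* on chromosome 11 between 48865245 and 49096987, and *Ifit2*, *Ifit3* and *Ifit1* on chromosome 19 between 34550550 and 34650009. Counts of near-identical copies in such clusters, such as *Tgtp1* and its twin *Tgtp2*, are uncertain where reads could be split between them or discarded.

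*Ubd*, which encodes the ubiquitin-like modifier FAT10 and is induced by interferon-γ with tumor necrosis factor, was at 5.41, 13.3 and 17.2 CPM in control, 12.8, 1.88 and 6.17 in sh2 and 24.3, 37.6 and 36.9 in sh3 tumors. Every sh3 tumor was above every other tumor, and sh3 minus sh2 was 2.24 ± 0.63 (SE) on the log2 scale. *Apol10b* was at 1.96, 2.90 and 3.89 CPM in control, 3.62, 1.35 and 1.08 in sh2 and 21.6, 5.08 and 16.9 in sh3 tumors. Again every sh3 tumor was highest, and sh3 minus sh2 was 2.84 ± 0.63. For the mean of both shRNAs, the log2 fold change was 0.34 ± 0.53 for *Ubd* (adjusted p = 0.986) and 0.89 ± 0.54 for *Apol10b* (adjusted p = 0.982 in edgeR, exact permutation p = 0.595).

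The interferons themselves were scarce. *Ifng* was at 1.66, 2.19 and 3.40 CPM in control, 1.31, 0.483 and 0.918 in sh2 and 1.99, 4.42 and 4.49 in sh3 tumors. Every sh2 tumor was below every control tumor, with a log2 fold change of -1.41 ± 0.50, an unadjusted p of 0.0194 and an adjusted p of 0.999 in edgeR, and an exact permutation p of 0.1. With sh3 it was 0.59 ± 0.48 (adjusted p = 0.834). *Ifnb1*, *Ifnab*, *Ifna13*, *Ifna16*, *Ifnz*, *Ifnl2* and *Ifnl3* had between 0 and 3 counts in every tumor, at or under the floor, and *Ifne* between 0 and 5, so no difference was detectable at this depth.

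Other genes of the pathway were followed as lists chosen with earlier results of these data known. Of 85 such genes tested, 0 passed an adjusted p of 0.05 in edgeR in any comparison, and 2 had an unadjusted p under 0.05 with sh2, 1 with sh3 and 0 with the mean of both. Over all genes tested that share was 3.52% with sh2, 6.63% with sh3 and 4.09% with the mean of both, so nothing is read from their number. Among 58 other induced genes, 45 were below 0 with sh2 (median -0.22) and 43 above 0 with sh3 (median 0.14). Above 0 were 22.4% of the 58 with sh2 and 74.1% with sh3, against 51.8% and 54.9% of all genes tested. Among 14 further receptor chains, kinases and transcription factors the medians were -0.11 and 0.09, and among 12 genes of nucleic acid sensing -0.02 and -0.03.

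*Ifitm1*, a membrane protein that restricts viral entry, had the lowest unadjusted p of these genes with sh2. It was at 26.6, 26.9 and 24.3 CPM in control, 104, 230.4 and 14.4 in sh2 and 20.3, 38.7 and 37.1 in sh3 tumors. The difference was carried by sh2 tumors 1 and 2, whereas sh2 tumor 3 was the lowest of all, and the log2 fold change was 2.17 ± 0.75 with sh2 (edgeR p = 0.0173, adjusted 0.999; exact permutation p = 0.4). Without sh2 tumor 2 it was 1.21.

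With sh3 the lowest unadjusted p was that of *Ido1*, a tryptophan-degrading enzyme induced by interferon-γ, at 1.11, 1.49 and 3.40 CPM in control, 2.78, 0.918 and 1.71 in sh2 and 4.02, 3.35 and 9.15 in sh3 tumors. Its sh3 and control ranges overlapped narrowly, with a log2 fold change of 1.46 ± 0.59 (edgeR p = 0.0362, adjusted 0.753, exact permutation p = 0.2) with sh3 and 0.66 ± 0.52 with the mean of both. *Psmb8*, an immunoproteasome subunit, was at 0.69 ± 0.32 and *Cxcl11*, a chemokine that draws T cells, at 1.12 ± 0.62 on the log2 scale with sh3. *Gbp4* was at -1.08 ± 0.62 with sh2, and *Slfn5* at -0.31 ± 0.23 with the mean of both.

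Some leukocyte markers moved with part of this pattern, and others did not. The summed CPM of 4 pan-leukocyte markers was 759 to 798 in control, 455 to 803 in sh2 and 446 to 1088 in sh3 tumors, and that of 4 T cell markers 60.7 to 74.1, 19.2 to 78.9 and 40.9 to 128 CPM. NK cell markers were at 9.37 to 11.2, 3.19 to 9.94 and 8.92 to 18.2 CPM (3 of 3 measured), and macrophage and monocyte markers at 1284 to 1401, 812 to 1265 and 558 to 2504 CPM. No marker of these lists was at 0 in all tumors. All 4 T cell and all 3 NK cell markers had a log2 fold change below 0 with sh2 and above 0 with sh3, as the GTPases did. The 4 conventional dendritic cell markers did likewise. Neutrophil markers went the other way, with 3 of 4 above 0 with sh2 and all 4 below 0 with sh3. All 3 B cell markers were above 0 with both shRNAs. Below 0 were 4 of 4 pan-leukocyte and 3 of 4 macrophage and monocyte markers with sh2, and 2 of 4 of each with sh3. None of these markers was called. The lowest T cell sum, 19.2 CPM, was in sh2 tumor 2, where the GTPases and *Ifng* were also lowest. The part of these cells in the results was not tested.

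sh3 tumor 1 stood apart from this ordering. It had the lowest antiviral group, yet the highest *Gm4841* and *Apol10b* of all tumors. *Socs1* and *Ubd* were higher in it than in any control or sh2 tumor. Its leukocyte sum was lowest at 446 CPM, but that of sh2 tumor 2 was close at 455 CPM. *Ptprc*, *Laptm5* and *Coro1a* were lowest in sh3 tumor 1, and *Cd53* in sh2 tumor 2. The macrophage sum was lowest in sh3 tumor 1 too, at 558 CPM, of which *C1qa* made up 296. *C1qa* and *Csf1r* were lowest there, *Cd68* in sh2 tumor 2 and *Mrc1* in sh3 tumor 3. Skeletal muscle markers were also uneven, between 0.876 CPM in sh2 tumor 3 and 2102 CPM in control tumor 3, with 687 CPM in sh3 tumor 1. Fibroblast markers summed to 2123 to 3650 CPM in control, 1687 to 2669 in sh2 and 976 to 1433 in sh3 tumors. Endothelial markers were at 177 to 211, 154 to 187 and 120 to 186 CPM. Plasmacytoid dendritic cell markers were at 2.65 to 24.8, 1.84 to 3.62 and 5.86 to 8.92 CPM. Of the 24.8 CPM, found in control tumor 3, *Cox6a2* made up 23.3. The part of these tissues in the results was not tested.

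**Figure D5:**
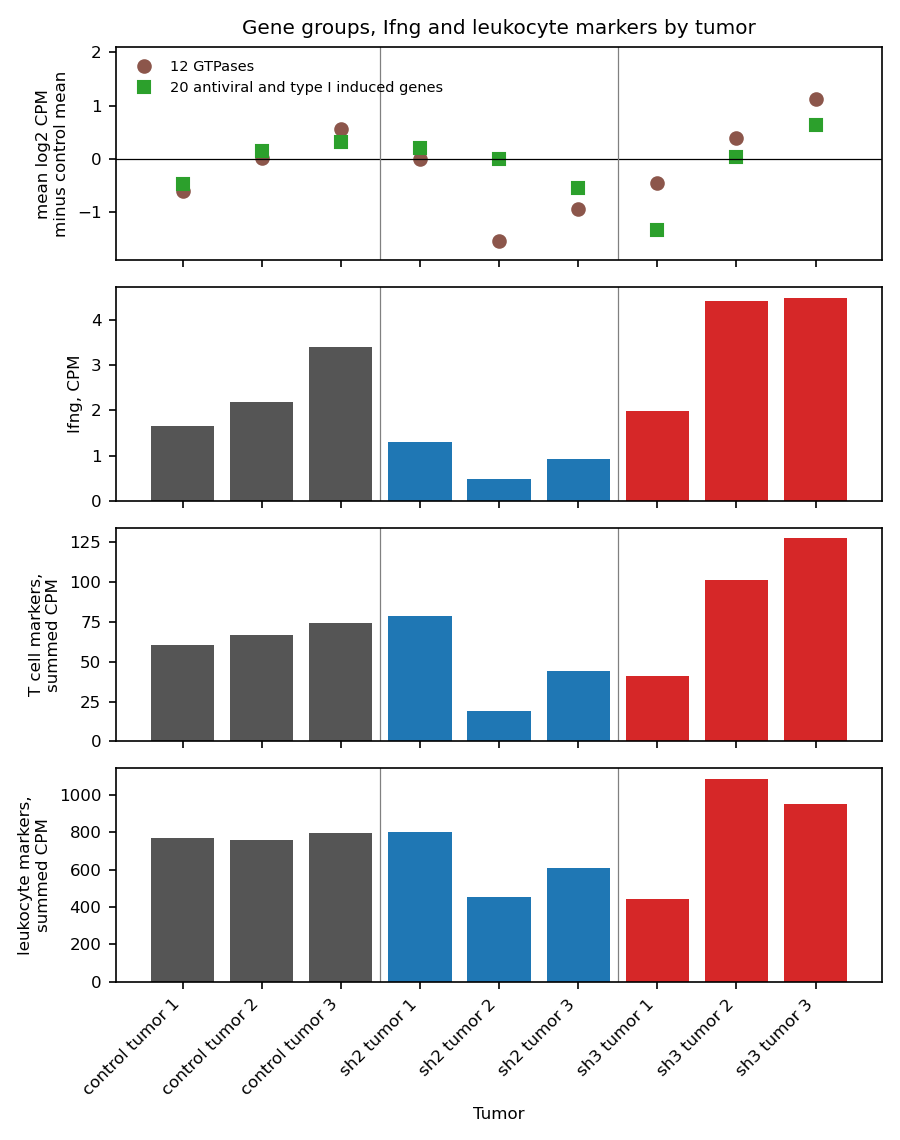
From top to bottom, per tumor: mean log2 CPM of the 12 GTPases and of the 20 antiviral and type I induced genes relative to the control mean, *Ifng* in CPM, and the summed CPM of 4 T cell and of 4 leukocyte markers. GTPases, *Ifng* and T cell markers are all lowest in sh2 tumor 2 and highest in sh3 tumor 3. The antiviral group is lowest in sh3 tumor 1. The leukocyte sum is nearly as low in sh2 tumor 2 (455 CPM) as in sh3 tumor 1 (446 CPM).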

How the data were processed

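RNA of 9 tumors was prepared with a stranded poly(A) kit. Per the submitters' processing notes, reads were aligned to mm10 with STAR 2.5.3a and counted with featureCounts; the strand setting is not given in the sources used here. The authors deposited raw counts, tested here, TPM, used here for levels between genes, and a normalized signal, CPM, equal to the count divided by the total and the TMM factor. A further 10 columns of the authors' own comparisons were not used.

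Counts were fitted in R 4.3.3 with edgeR 4.0.16 (filterByExpr, 14725 genes, TMM, robust quasi-likelihood, 1 coefficient per group from the labels), adjusted by Benjamini-Hochberg over all genes tested. CPM in the text uses these factors. Members were also compared by a two-sided exact permutation test of log2 CPM, with p no lower than 0.1 for 3 against 3 tumors or 0.0238 for 6 against 3. The sources call the 3 tumors of a group biological replicates and say no more on how they were obtained. The library name of control tumor 1 has another form than those of the other tumors, and its meaning is not given. Alternatives used DESeq2 1.42.0 and other scalings, filters and subsets; the code was tested on simulated data. The floor of 3 counts covers counting error only, since reads carry no molecular identifiers.

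Values per tumor are given for the 5 genes of the choice, the receptors and transcription factors, the 5 largest changes of tested members in each comparison and the 5 highest TPM, and, outside the list, for interferon genes and the 3 lowest p in each comparison. *Ifit1* and *Isg15* were added after their values were seen. Members and lists were chosen with earlier results of these data known.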

Additional observations from a re-analysis of the deposited data

Results flagged for a closer look

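In 2 members each tumor with sh2 and each tumor with sh3 lay on opposite sides of all control tumors. *Socs1* was lower in the 3 sh2 tumors and higher in the 3 sh3 tumors, with sh3 minus sh2 at 1.70 on the log2 scale (1.37 to 1.93 on leaving out single tumors). *Ifnlr1* was higher in the 3 sh2 tumors and lower in the 3 sh3 tumors, with sh3 minus sh2 at -0.96 (-1.10 to -0.85). Of all genes tested, 5.56% lay above and 5.83% below every control tumor with sh2, and 6.78% above and 5.44% below with sh3. The share on opposite sides with both shRNAs was not counted. Neither difference was tested, and nothing is read from the number of genes or from the ranges. Both genes were chosen by the difference between the shRNAs in these same tumors.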

How the results depend on the processing

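No member passed an adjusted p of 0.05 in any of the 3 comparisons with control under any alternative: DESeq2's size factors or Wald test, edgeR's likelihood ratio test, no filter, a minimum of 10 counts per tumor, only the compared groups (or sh2 and sh3 merged), the replicate block, and leaving out each tumor, which also left 0 of all genes. Over all genes DESeq2's Wald test called 2 with sh2, 41 with sh3 and 9 with the mean of both, and the likelihood ratio test 8 with sh3 and 8 with the mean of both, against 0; the cause was not tested. CPM without TMM factors left 1 member above every control tumor with sh2 in place of 2, and 2 below with sh3 in place of 1. Without control tumor 3 the log2 fold change of *Gbp6* for the mean of both turned from -0.37 to 0.13; leaving out single tumors gave -0.74 to 0.13. Without sh3 tumor 3 the sh3 value of *Igtp* turned from 0.48 to -0.32, within a range of -0.32 to 0.86. Merging sh2 and sh3 gave *Apol10b* 1.50 in place of 0.89. Medians leaving out single tumors ranged from -0.45 to -0.10 (sh2), -0.23 to 0.49 (sh3) and -0.29 to 0.14 (both) for all members. The replicate numbers did not pair the tumors (correlations of same-numbered tumors -0.24 to 0.09). With the replicate block the genes at an unadjusted p under 0.05 in edgeR numbered 319, 670 and 395, in place of 518, 976 and 602. Without sh3 tumor 1 they numbered 861, 2154 and 1235. With sh3 and with the mean of both, these were the highest numbers on leaving out a single tumor. With 3 tumors a group, changes smaller than the spread between tumors were not detectable, and larger ones could go uncalled too. The targeted *Tmprss11bnl*, with all 6 shRNA tumors below every control tumor, was one. Its log2 fold change for the mean of both was -2.63 ± 0.46, with adjusted p = 0.982 in edgeR.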

Other observations

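The GTPases and the antiviral group, which placed the control tumors in the same order, came apart most in sh2 tumor 2 and sh3 tumor 1. The difference of their mean levels (GTPases minus antiviral, log2, relative to the control mean) was -0.13, -0.13 and 0.26 in control, -0.22, -1.53 and -0.39 in sh2 and 0.89, 0.36 and 0.50 in sh3 tumors. The 3 sh2 tumors were below and the 3 sh3 tumors above all control tumors, but sh2 tumor 1 lay close to control tumors 1 and 2. In sh2 tumor 2 the GTPases were at -1.53 and the antiviral group at 0.00. In sh3 tumor 1 the GTPases were at -0.44 and the antiviral group at -1.33, so both were below the control mean there. Without *Gm4841*, which was chosen by the difference between the shRNAs, the differences were -0.11, -0.13 and 0.24, then -0.21, -1.47 and -0.32, then 0.73, 0.34 and 0.51. This difference was formed after the values were seen. No test was made of it, and it was not set beside other pairs of lists.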
